A study of Mus musculus with 8 samples.

Results

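The 8 genes described here write, copy or remove methyl groups on DNA: Dnmt1, Uhrf1, Dnmt3a, Dnmt3b, Dnmt3l, Tet1, Tet2 and Tet3. They were taken by name from a table of 28431 genes, each name stood at 1 row, and all 8 were among the 17970 genes with enough reads to test. Their messenger RNA was counted in 8 libraries from mouse embryonic stem cells, which are cultured cells derived from the inner cell mass of the blastocyst. All cells carried a MERVL::EGFP transgene, a reporter driven by the MERVL retrotransposon that lights up in the rare cells resembling the cleavage-stage embryo. All were kept on gelatin in serum with leukemia inhibitory factor and the kinase inhibitors CHIR99021 and PD0325901 (2i), and all were transfected with siRNA on consecutive days.

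The 4 groups had 2 biological replicates each and differed in siRNA alone. The negative control (NC) received 20 pmol of a non-targeting siRNA. The Chaf1a group received 10 pmol of siRNA against Chaf1a, the large subunit of the CAF-1 histone chaperone that loads histones H3 and H4 behind the replication fork, with 10 pmol of negative control siRNA. The other 2 groups received 10 pmol of the Chaf1a siRNA with 10 pmol of a diced siRNA pool, si308 or si309, in place of the negative control siRNA. Each pool was made from a different fragment of mDux, a transcription factor gene of the cleavage-stage embryo. No group received an unrelated diced pool, or an mDux pool without Chaf1a siRNA. Loss of mDux and the exchange of control siRNA for a diced pool therefore cannot be told apart. The label of 1 si309 library gives no dose. Strain and cell line are not given in the sources used here, and the Chaf1a depletion rests on 1 siRNA. The study asked how depletion of Chaf1a, alone and with mDux, changes the transcripts of these cells.

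DNA methylation in mammals sits mostly on cytosines followed by guanine. Dnmt1 copies the pattern onto new strands after replication and is brought to half-methylated sites by Uhrf1. Dnmt3a and Dnmt3b place methyl groups on unmethylated DNA, and Dnmt3l, which has no catalytic activity, binds and stimulates them. The TET enzymes oxidise 5-methylcytosine to 5-hydroxymethylcytosine and beyond, which leads to loss of the mark through replication or base excision. Embryonic stem cells in 2i are known for low DNA methylation, with Tet1 and Tet2 as their main TET enzymes. The measurements here are of messenger RNA, and no DNA methylation was measured in these files.

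Library totals ran from 26042851 to 42375685 gene counts. Levels below are CPM, counts divided by the TMM-scaled size of the library, and errors after ± are standard deviations over 2 libraries. Raised or lowered means an adjusted p under 0.05 in edgeR's quasi-likelihood F test with Benjamini-Hochberg adjustment over the 17970 genes, and SE is the standard error of a log2 fold change. The targeted gene followed its labels: Chaf1a stood at 139 and 140 CPM in NC and between 28.7 and 35.19 CPM in the 6 libraries with its siRNA, a log2 fold change of -2.23 (SE 0.07, adjusted p = 4.9e-17) in the Chaf1a group. mDux, listed as 4933403O03Rik, had 0 and 2 counts in NC and 256 and 193 in the Chaf1a group; adding si308 left 1 and 4, and adding si309 left 5 and 9. The embryonic stem cell core markers Pou5f1, Sox2, Nanog, Sall4 and Utf1 were detected in every library, with a summed level of 2009 to 2095 CPM in NC and 1401 to 1533 CPM in the other 6. Because these are bulk samples, a lower level in fewer cells and less RNA in every cell cannot be told apart.

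The genes lie apart in the genome, on GRCm38 coordinates. Dnmt1 (ENSMUSG00000004099) is at chr9:20907209-20959888 on the minus strand and Uhrf1 (ENSMUSG00000001228) at chr17:56303321-56323486 on the plus strand. Dnmt3a (ENSMUSG00000020661) is at chr12:3806007-3914443, Dnmt3b (ENSMUSG00000027478) at chr2:153649450-153687730 and Dnmt3l (ENSMUSG00000000730) at chr10:78041947-78063622, all on the plus strand. The TET genes are on the minus strand, Tet1 (ENSMUSG00000047146) at chr10:62804570-62908996, Tet2 (ENSMUSG00000040943) at chr3:133463679-133545139 and Tet3 (ENSMUSG00000034832) at chr6:83362373-83459084. Exons of Dnmt3l overlap those of Aire on the other strand over 67 bases (2.24% of Dnmt3l exon bases), and Dnmt3a overlaps its antisense gene Dnmt3aos over 133 bases (0.799%). The library kit keeps strand, and whether the counting used it is not given in the sources used here. Aire itself had 1014 and 1448 counts in NC and 1185 to 2438 in the other libraries.

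To show what stands upstream of the member that rose most, of a second raised gene and of a lowered one, the 250 bases before an annotated start are printed for Dnmt3l, Dnmt3b and Uhrf1, from RefSeq on GRCm38.p6, 5′ to 3′ on the gene's strand, with each CG in capitals. None of the 3 stretches overlaps an annotated exon, and they are at chr10:78049592-78049841, chr2:153649199-153649448 and chr17:56304063-56304312, all on the plus strand.
Dnmt3l: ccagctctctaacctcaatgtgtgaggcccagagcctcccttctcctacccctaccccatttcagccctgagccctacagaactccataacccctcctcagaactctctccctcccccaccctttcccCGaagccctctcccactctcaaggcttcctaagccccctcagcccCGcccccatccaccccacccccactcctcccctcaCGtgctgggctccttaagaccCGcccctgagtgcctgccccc
Dnmt3b: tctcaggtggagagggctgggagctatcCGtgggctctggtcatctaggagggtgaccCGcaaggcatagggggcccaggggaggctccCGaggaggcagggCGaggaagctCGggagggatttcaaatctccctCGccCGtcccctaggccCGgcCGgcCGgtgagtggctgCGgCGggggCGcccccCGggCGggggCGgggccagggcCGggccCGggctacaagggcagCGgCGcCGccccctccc
Uhrf1: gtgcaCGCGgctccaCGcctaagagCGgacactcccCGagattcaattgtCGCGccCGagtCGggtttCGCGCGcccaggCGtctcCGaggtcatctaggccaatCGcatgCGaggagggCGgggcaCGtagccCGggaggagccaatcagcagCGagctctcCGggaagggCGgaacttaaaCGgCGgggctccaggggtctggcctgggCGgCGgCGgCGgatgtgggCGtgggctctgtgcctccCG
The Dnmt3l stretch is poor in CG, with 4 against 21 for Dnmt3b and 30 for Uhrf1. Counted over 300 bases, from 250 before the start to 50 after it, the Dnmt3l window held 4 CG, and 31.4% of the 32851 promoter windows of the same length in the table held fewer. The printed windows of Dnmt3b and Uhrf1 held more CG than 88.3% and 91.4% of all windows. The other window of Uhrf1 held 12 CG, more than 60.4% of all windows, and the 3 windows of Dnmt1, which also fell, held 2, 12 and 33, so the contrast between the printed stretches rests on the starts chosen. The other 2 RefSeq windows of Dnmt3l held 6 and 3 CG, against a median of 7 over all windows. The member windows richest in CG belonged to Tet2, with 57, and Dnmt3a, with 47. The letters TTTCCCGC, a form of the site bound by E2F factors, were in 0 of the 15 member windows on either strand and in 1.07% of all windows. A second form, TTTGGCGC, was in 1 member window, the third of Dnmt1, and in 0.514% of all windows. Counts were made per gene, so the start in use is not told by these data.

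In NC the order of levels per kilobase of exon put the maintenance pair first. Uhrf1 stood at 203 CPM per kb and Dnmt1 at 100.1, followed by Dnmt3l at 35.68, Dnmt3b at 21.7 and Tet1 at 20.51. Tet2 at 5.516, Dnmt3a at 5.27 and Tet3 at 0.351 CPM per kb were lowest. With Chaf1a siRNA, Dnmt3l stood first at 183.4 CPM per kb, above Uhrf1 at 149.8 and Dnmt1 at 83.68. Dnmt3a, at 9.954 CPM per kb, was then above Tet2, at 4.594. These lengths are the union of all annotated exons, so a gene with long alternative exons is placed low.

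**Figure D1:**
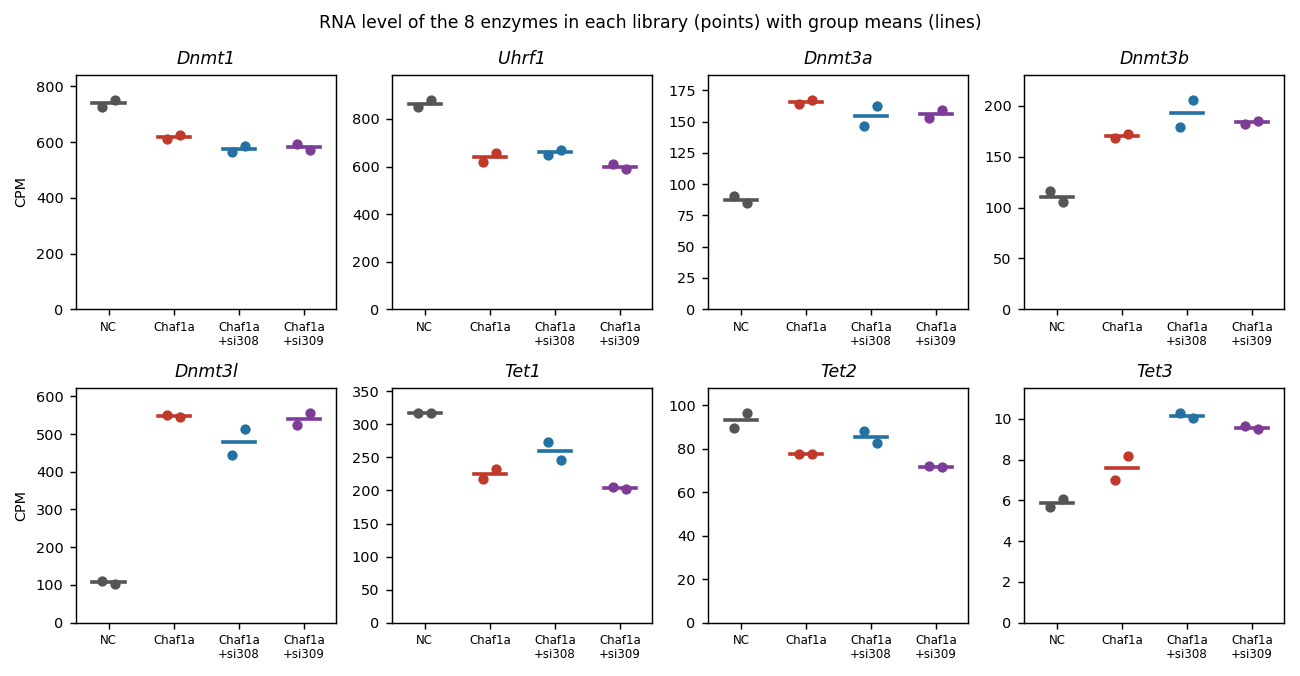
Level of each of the 8 genes in every library, in TMM-scaled CPM on the y axis, which starts at 0 in each panel; points are single libraries and horizontal bars the mean of 2 libraries in each of the 4 siRNA groups on the x axis. Dnmt3l stands at 103.5 and 109.7 CPM in NC and between 444.2 and 555.9 CPM in the 6 libraries with Chaf1a siRNA, while Dnmt1, Uhrf1 and Tet1 are highest in NC.

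After depletion of Chaf1a, members were called in both directions. The 3 genes of de novo methylation rose, led by Dnmt3l, and the maintenance genes Dnmt1 and Uhrf1 fell, as did Tet1 and Tet2, while the scarce Tet3 rose. All 8 members were called, 4 raised and 4 lowered. Over all genes tested, 67.5% were called in this comparison, 37.1% raised and 30.4% lowered, so calls in both directions were common. The median log2 fold change of the 8 was 0.05, beside 0.06 over all genes tested.

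Dnmt3l, the catalytically inactive cofactor, had 109.7 and 103.5 CPM in NC and 551.4 and 544.6 CPM with Chaf1a siRNA. Both depleted libraries were far above both controls, and the groups did not overlap. The log2 fold change was 2.36 (SE 0.06, adjusted p = 1.2e-18), a 5.145-fold higher level. Of the 9581 genes with a mean of at least 10 CPM, 1.65% had a larger absolute change than Dnmt3l. Dnmt3a, a catalytic de novo enzyme, had 90.4 and 85.02 CPM in NC and 163.8 and 167.6 CPM with Chaf1a siRNA, again without overlap. Its log2 fold change was 0.92 (SE 0.06, adjusted p = 5.1e-12), and 10.3% of genes of that abundance changed by more. Dnmt3b, the catalytic enzyme with the larger per-length level, had 116.6 and 105.1 CPM in NC and 168.7 and 172 CPM with Chaf1a siRNA. It rose by 0.62 on the log2 scale (SE 0.06, adjusted p = 1e-08), and 21.4% of genes changed by more.

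The maintenance genes moved the other way and by less. Uhrf1, which reads half-methylated DNA, had 848.4 and 881 CPM in NC and 621 and 655.1 CPM with Chaf1a siRNA. Both depleted libraries were below both controls, with a log2 fold change of -0.44 (SE 0.04, adjusted p = 8.9e-09). Dnmt1, the maintenance methyltransferase, had 724.9 and 752.3 CPM in NC and 609.4 and 625.2 CPM with Chaf1a siRNA. The groups were again separate, with a smaller log2 fold change of -0.26 (SE 0.04, adjusted p = 1.4e-05). Sizes such as that of Dnmt1 were ordinary in this comparison: 58.9% of genes with at least 10 CPM changed by more, and 36.5% changed by more than Uhrf1.

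Among the dioxygenases, Tet1 had 317.4 and 316.8 CPM in NC and 216.9 and 233.1 CPM with Chaf1a siRNA. It fell by 0.50 on the log2 scale (SE 0.05, adjusted p = 2.5e-08), with 31.1% of genes changing by more. Tet2 had 89.7 and 96.42 CPM in NC and 77.57 and 77.41 CPM with Chaf1a siRNA. Its fall was smaller, with a log2 fold change of -0.27 (SE 0.06, adjusted p = 3e-04), and it was no longer called when libraries were scaled by their totals alone (adjusted p = 0.11). Tet3, the TET enzyme best known from the egg and zygote, had 5.655 and 6.064 CPM in NC and 6.995 and 8.196 CPM with Chaf1a siRNA. These levels rest on 144 and 200 counts in NC and 243 and 218 with Chaf1a siRNA. The rise of 0.36 on the log2 scale (SE 0.13, adjusted p = 0.019) had the largest adjusted p of the 8. It was not called by DESeq2 (adjusted p = 0.058), without NC replicate 0 (0.088) or without Chaf1a replicate 1 (0.18). In the authors' deposited table, Tet3 had a log2 fold change of 0.30 with an adjusted p of 0.1.

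Scaling sets the zero of this comparison, because the TMM factors were 0.9115 and 0.9201 in NC and 1.021 to 1.039 in the other libraries. With library totals in place of TMM the median of all genes moved from 0.06 to 0.22, and the split of called genes from 6664 raised and 5461 lowered to 8128 raised and 3788 lowered. Relative to the median of all genes, Dnmt3l rose by 2.30, Dnmt3a by 0.86, Dnmt3b by 0.56 and Tet3 by 0.30 on the log2 scale. On the same footing Tet1 stood at -0.56, Uhrf1 at -0.50, and Dnmt1 and Tet2 at -0.32. No member reversed its direction in this comparison under any alternative tried.

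**Figure D2:**
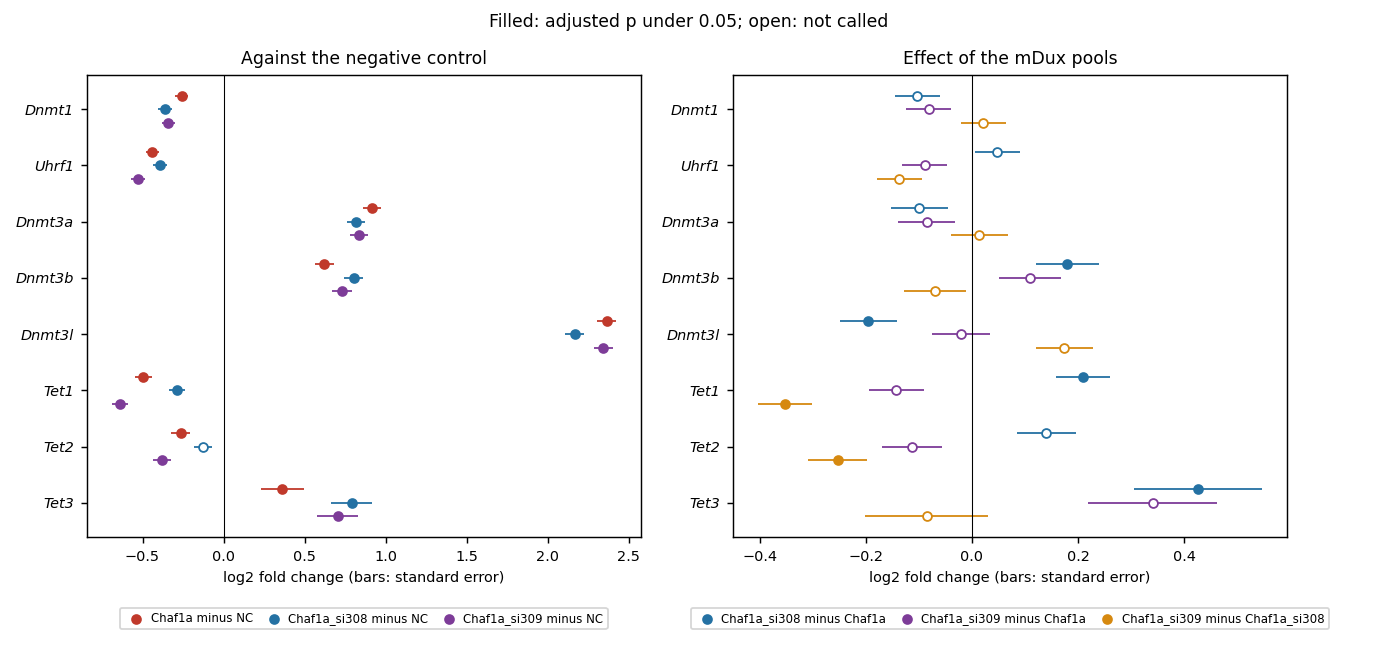
Log2 fold change (x axis) of each of the 8 genes (y axis), with bars of 1 standard error; filled points are called at an adjusted p under 0.05 and open points are not. The left panel sets the 3 groups with Chaf1a siRNA against NC, and the right panel, on a narrower scale, sets the mDux pools against Chaf1a siRNA alone and against each other, where all values lie between -0.35 and 0.43.

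Dnmt3l took a larger part of the de novo messages. Per kilobase of exon, it made up 56.5% and 57.43% of the summed Dnmt3a, Dnmt3b and Dnmt3l level in the NC libraries and 81.15% and 80.64% with Chaf1a siRNA. The shares stayed high with the pools, at 77.2% and 77.39% with si308 and 79.62% and 80.24% with si309. Dnmt3b went from 34.62% in NC to 14.72% with Chaf1a siRNA although its own level rose, and Dnmt3a from 8.414% to 4.391%. With the longest coding transcript as the length, chosen after the data had been seen, the Dnmt3l share was 62.8% in NC and 84.2% with Chaf1a siRNA.

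The TET messages kept their order in every library, with Tet1 first and Tet3 last. Tet1 was 77.76% of the per-length sum in NC and 74.24% with Chaf1a siRNA, and Tet2 20.9% and 23.45%. Tet3 had 1.33% ± 0.052 in NC (n = 2), 2.317% ± 0.167 in the Chaf1a group, 2.708% ± 0.133 when si308 was added and 3.186% ± 0.011 when si309 was added. Uhrf1 per kilobase was 2.027 times Dnmt1 in NC, 1.79 times in the Chaf1a group, 1.988 times when si308 was added and 1.78 times when si309 was added. The ratio of Dnmt1 to the summed catalytic de novo genes, also per kilobase, was 3.724 ± 0.349 in NC and 1.932 with Chaf1a siRNA, and stood at 1.662 with si308 and 1.744 with si309. These shares and ratios are descriptions and were given no test.

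**Figure D3:**
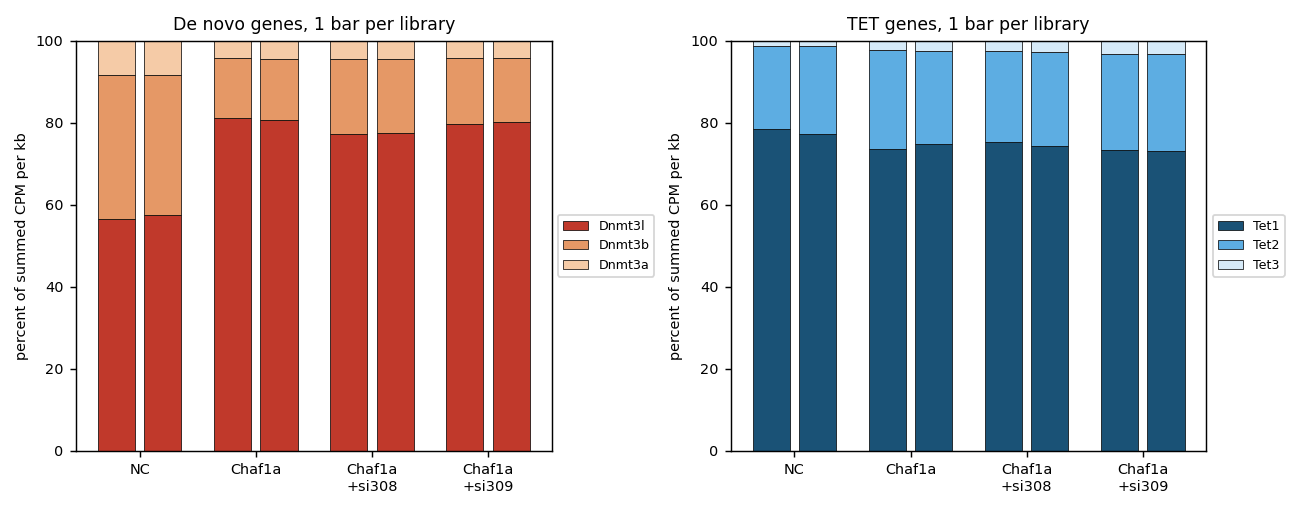
Percent of the summed CPM per kb of exon (y axis, 0 to 100) taken by Dnmt3l, Dnmt3b and Dnmt3a (left) and by Tet1, Tet2 and Tet3 (right), with 1 bar per library and 2 libraries in each of the 4 siRNA groups on the x axis. Dnmt3l takes 56.5% and 57.43% in NC and 77.2% to 81.15% in the other libraries, while the TET shares differ less between groups.

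Adding an mDux pool did not return the de novo and maintenance genes to control levels, although the pools brought the two-cell-like genes down. The summed level of 12 two-cell-like markers, such as Zscan4c and Zfp352, was 1.607 to 2.003 CPM in NC and 1153 to 1206 CPM in the Chaf1a group. It was 1.694 to 2.048 CPM where si308 was added and 30.64 to 31.44 CPM where si309 was added. Dnmt3l, by contrast, had 444.2 and 512.7 CPM with si308 and 524.4 and 555.9 CPM with si309. These were 448.8% and 506.6% of the NC mean, against 514% with Chaf1a siRNA alone. Dnmt3a had 146.4 and 162.6 CPM with si308 and 153.1 and 159 CPM with si309. All 4 libraries were above both NC libraries and below both libraries with Chaf1a siRNA alone, by amounts that were not called (log2 fold changes of -0.10 and -0.09 against Chaf1a siRNA alone, adjusted p = 0.21 and 0.36).

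Against NC, the members called were 4 raised and 3 lowered with si308, where 61.8% of all genes were called, 32.9% raised and 28.9% lowered. With si309 they were 4 raised and 4 lowered, where 65.5% were called, 34.8% raised and 30.7% lowered. All 3 comparisons with NC share its 2 libraries. Dnmt3l had a log2 fold change of 2.17 with si308 and 2.34 with si309, Dnmt3a of 0.82 and 0.83, and Dnmt3b of 0.80 and 0.73. Uhrf1 had -0.39 and -0.53, Dnmt1 -0.36 and -0.34, and Tet1 -0.29 and -0.64. Tet3 rose in both, by 0.79 with si308 (adjusted p = 1.3e-05) and 0.70 with si309 (adjusted p = 5e-05). Tet2 was the member not called with si308 (log2 fold change -0.12, adjusted p = 0.058), and with si309 it fell by 0.38. In the authors' deposited table, Tet2 with si308 had a log2 fold change of -0.15 and an adjusted p of 0.035.

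Compared with Chaf1a siRNA alone, si308 moved 4 of the 8, with 3 raised and 1 lowered. Of all genes, 21.8% were called, 8.92% raised and 12.9% lowered. Tet3, with 10.29 and 10.03 CPM, was raised by 0.43 on the log2 scale (SE 0.12, adjusted p = 0.014), further from NC. Tet1, with 274 and 246.5 CPM, was raised by 0.21 (SE 0.05, adjusted p = 0.005), to between the Chaf1a and NC levels. Dnmt3b, with 179.3 and 206.1 CPM, was raised by 0.18 (SE 0.06, adjusted p = 0.032). Dnmt3l was lowered, with a log2 fold change of -0.20 (SE 0.05, adjusted p = 0.012). Tet2 had 88.24 and 82.76 CPM and a difference of 0.14 (adjusted p = 0.081), and Dnmt1 had 563.4 and 585.8 CPM and -0.10 (adjusted p = 0.087). Uhrf1 had 650.4 and 668.5 CPM, overlapped the Chaf1a group and had 0.05 (adjusted p = 0.48). These calls were not firm: 0 members were called without Chaf1a replicate 0, 2 without Chaf1a replicate 1 and 1 without si308 replicate 0. Chaf1a itself was 0.22 higher on the log2 scale with si308 than with Chaf1a siRNA alone (adjusted p = 0.036), and its part in these differences was not tested.

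With si309, 0 of the 8 were called against Chaf1a siRNA alone by edgeR, where 10.9% of all genes were called (3.24% raised and 7.61% lowered), and DESeq2 also called 0. The smallest unadjusted p-values in edgeR's test were 0.011 for Tet1, 0.011 for Tet3 and 0.048 for Uhrf1. How many of all genes had unadjusted p-values this low was not computed. A fit to these 2 groups alone called 3, Dnmt3b, Tet1 and Tet3 (adjusted p = 0.037, 0.015 and 0.038). The share of all genes called by that fit is not given here. Tet1 had 205.8 and 201.6 CPM and a log2 fold change of -0.14 (SE 0.05, adjusted p = 0.083). Tet3 had 9.634 and 9.515 CPM and 0.34 (SE 0.12, adjusted p = 0.079). Uhrf1 had 608.5 and 590.8 CPM and -0.09 (adjusted p = 0.2). Dnmt3l overlapped the Chaf1a group and differed by -0.02 (adjusted p = 0.86), Dnmt3b had 182.3 and 185.1 CPM and 0.11 (adjusted p = 0.27), and Dnmt1 had 594 and 572.9 CPM and -0.08 (adjusted p = 0.25). Tet2 had 72 and 71.35 CPM, below both Chaf1a libraries, and -0.11 (adjusted p = 0.23).

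The pools differed from each other in Tet1 and Tet2. Both were lower with si309, and 3.68% of all genes were called between the pools, 2.4% higher and 1.28% lower with si309. Tet1 had a log2 fold change of -0.35 for si309 minus si308 (SE 0.05, adjusted p = 0.00019). The call held in each fit that left out 1 library of either pool, with adjusted p between 4.9e-05 and 0.01. Tet2 had 72 and 71.35 CPM with si309 and a log2 fold change of -0.25 (SE 0.06, adjusted p = 0.011). That call was lost without si308 replicate 0 (adjusted p = 0.12), si309 replicate 0 (0.096) or si309 replicate 1 (0.14). For Dnmt3l the difference of 0.17 had an adjusted p of 0.08 and for Uhrf1 that of -0.14 had 0.079, and DESeq2 called both (adjusted p = 0.048 and 0.047). Dnmt1, Dnmt3a, Dnmt3b and Tet3 differed by between -0.09 and 0.02 and were not called.

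Genes that act with or on the maintenance pair mostly fell with Chaf1a siRNA. Of 10 tested genes in this list of maintenance cofactors, 8 were lowered and 1 raised, with a median log2 fold change of -0.34 beside 0.06 over all genes. The list mixes roles, and the lowered genes include Dppa3, which acts against Uhrf1, so its median gives no direction for maintenance itself. Over all genes 37.1% were raised and 30.4% lowered, the shares beside which the counts of each list below stand. Cdca7, a partner of the remodeller Hells, had 244.7 ± 2.78 CPM in NC and 125.6 ± 5.70 with Chaf1a siRNA (log2 fold change -0.96, adjusted p = 2.3e-13). Dppa3, which keeps Uhrf1 from chromatin in the egg and early embryo, went from 24.7 to 7.615 CPM (-1.69, adjusted p = 5.2e-11). Lig1, the ligase of lagging-strand replication, went from 686 to 470.9 CPM (-0.54, adjusted p = 1.3e-10). The gene raised was Uhrf2, the paralog of Uhrf1, from 52.44 to 75.69 CPM (0.53, adjusted p = 4.8e-08). Against Chaf1a siRNA alone, Dppa3 was lowered further with both pools (-0.72 with si308 and -0.58 with si309, adjusted p = 0.00049 and 0.006). Uhrf2 was lowered with si308, to 62.86 CPM (-0.27, adjusted p = 0.0012), and was not called with si309 (-0.07, adjusted p = 0.46).

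Most genes of a list for S phase fell, as Dnmt1 and Uhrf1 did. Of 15 S phase genes, 11 were lowered and 3 raised, with a median log2 fold change of -0.29. Their summed level was 6162 to 6305 CPM in NC and 4881 to 4964 in the Chaf1a group, with 4840 to 5006 for added si308 and 4778 to 4796 for added si309, and none was at 0. Mcm6, a subunit of the replicative helicase, and Cdt1, which loads it, were lowered by 0.65 and 0.75 on the log2 scale. The 3 raised genes were Ccne2, a G1/S cyclin, by 1.36, Ccne1 by 0.35 and Slbp by 0.17. Pcna is in this list and in that of the maintenance cofactors, so the 2 lists are not separate. The part of cell cycle stage in the levels of Dnmt1 and Uhrf1 was not tested.

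Around the de novo enzymes there was no common direction. Of 10 tested regulators, 3 were raised and 4 lowered, near the 37.1% and 30.4% over all genes. Their median log2 fold change was -0.04, beside 0.06 over all genes. Prdm14, a repressor of Dnmt3a, Dnmt3b and Dnmt3l in mouse embryonic stem cells, went from 41.19 ± 1.56 CPM to 18.34 ± 1.35 CPM (-1.17, adjusted p = 6.4e-11). Prdm14 was not called against Chaf1a siRNA alone with either pool. Nsd1, which places the H3K36 dimethyl mark that Dnmt3a binds, had a log2 fold change of -0.41 (adjusted p = 5e-08), and Morc1, a factor of transposon silencing in the male germline, had -0.43 (adjusted p = 6.2e-08). Piwil4, a piRNA-pathway protein of the fetal male germline, went from 0.5612 to 3.753 CPM (2.78, adjusted p = 1.6e-08), and Smchd1, a repressor of the inactive X, from 165.6 to 195.4 CPM (0.24, adjusted p = 0.00015).

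Dnmt3c, a rodent enzyme that methylates young retrotransposons in male germ cells, is listed as Gm14490. It had 1 and 0 counts in NC, 24 and 20 in the Chaf1a group, 8 and 14 when si308 was added and 11 and 16 when si309 was added. With Chaf1a siRNA its CPM was 41.9 times that in NC, with a 95% exact interval of 7.14 to 1690 that covers counting error only, and the adjusted p was 9.7e-06. With si308 it was 0.41 times the level with Chaf1a siRNA alone (interval 0.234 to 0.7, adjusted p = 0.044), and with si309 0.529 times (0.315 to 0.873, adjusted p = 0.2). Dnmt3c is a near copy of Dnmt3b, so its counts are uncertain where reads match both genes, and at most 24 counts in a library are small beside those of Dnmt3b. A Dnmt3l pseudogene, Dnmt3l-ps1, had 1 to 6 counts per library and was not tested.

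Among the partners of the TET enzymes, 6 of 11 tested were lowered and 2 raised, with a median log2 fold change of -0.11. Wdr76, a chromatin-bound WD40 repeat protein, went from 194.5 to 76.37 CPM (-1.35, adjusted p = 1.7e-14). Ogt, the O-GlcNAc transferase that binds TET proteins, went from 472.8 to 328.1 CPM (-0.53, adjusted p = 8.7e-09), and Nanog, a pluripotency factor that binds Tet1, from 776.8 to 514.5 CPM (-0.59, adjusted p = 2.1e-09). Lin28a, an RNA-binding protein, was raised by 0.84 (adjusted p = 1.2e-09), and higher again with each pool (0.55 and 0.46 against Chaf1a siRNA alone, adjusted p = 1.7e-06 and 3.6e-05). Sall4, a zinc-finger factor that binds 5-hydroxymethylcytosine, was raised by 0.27, from 113.9 to 137.1 CPM (adjusted p = 0.00017). It was lowered again by each pool, to 110.5 CPM with si308 and 110.4 CPM with si309 (-0.31 each against Chaf1a siRNA alone, adjusted p = 0.00018 and 0.00026).

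Downstream of TET oxidation, 11 of 19 genes of base excision and deamination were lowered and 3 raised, with a median log2 fold change of -0.34. Tdg, the glycosylase that removes oxidised methylcytosine, had 3.146 ± 0.161 CPM in NC and 2.549 ± 0.0636 with Chaf1a siRNA and was not called (adjusted p = 0.17). Neil1, a second glycosylase, went from 11.82 to 4.407 CPM (-1.42, adjusted p = 7.7e-09), Ung, which removes uracil, from 111.4 to 75.65 CPM (-0.56, adjusted p = 1.9e-08), and Apobec3, a cytidine deaminase, from 158.9 to 90.62 CPM (-0.81, adjusted p = 1.5e-11). Gadd45a, a stress-response gene linked to active demethylation, was raised by 0.81 (adjusted p = 9.9e-08). Apobec2 was raised by 0.69 (adjusted p = 2e-07).

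Among genes for the supply of methyl groups, 9 of 11 were lowered and 0 raised, with a median log2 fold change of -0.49. Mthfd1l, of mitochondrial folate metabolism, went from 202.2 to 110.8 CPM (-0.87, adjusted p = 8.8e-12), Shmt1, a serine hydroxymethyltransferase, from 239 to 139.9 CPM (-0.77, adjusted p = 9.6e-12), and Mat2b, a subunit of the enzyme that makes S-adenosylmethionine, from 116.1 to 73.09 CPM (-0.67, adjusted p = 2.7e-10). Its catalytic subunit Mat2a had 479.1 and 462.3 CPM and was not called (adjusted p = 0.36). Of the 7 genes listed with the methyl-CpG readers, a list that includes Mbd3, 3 were raised and 3 lowered. Mbd2, a reader of methylated promoters, was raised by 0.75 (adjusted p = 3.2e-08) and Mbd1 and Zbtb33 by 0.43 each (adjusted p = 8.4e-05 and 0.00047). Mbd3 had a log2 fold change of -0.40 and Zbtb38 of -0.27 (adjusted p = 1e-06 and 0.0028).

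**Figure D4:**
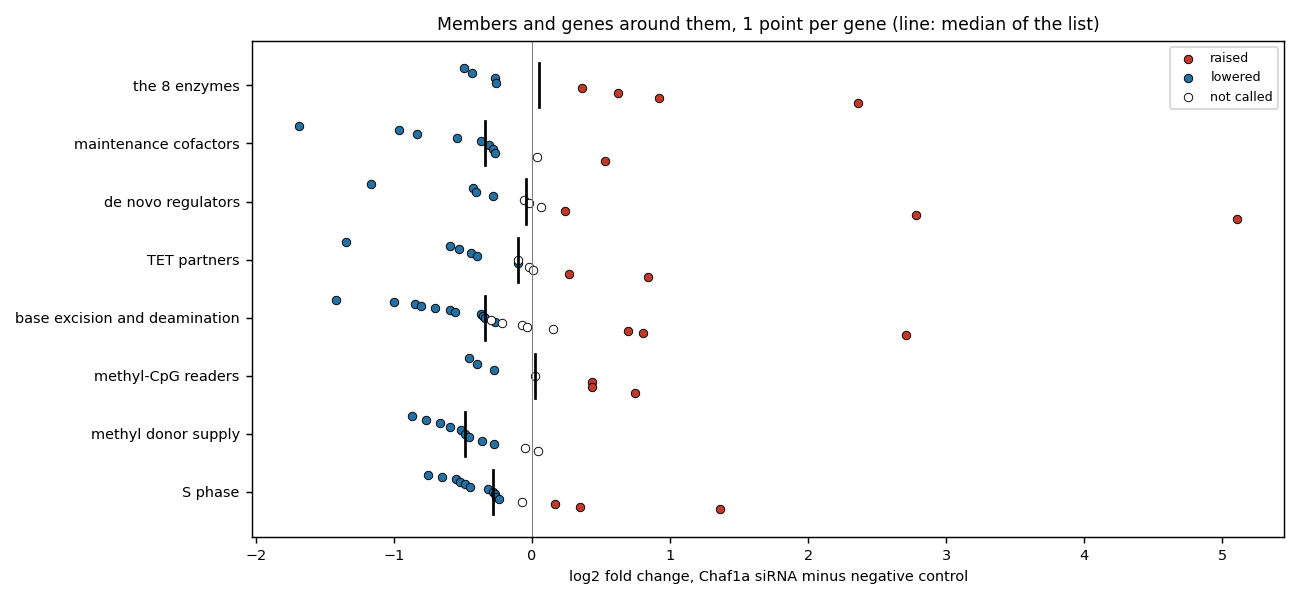
Log2 fold change of Chaf1a siRNA minus negative control (x axis) for the 8 genes and the tested genes of 7 lists around them (y axis), with 1 point per gene coloured by call and a black line at the median of each list. The point furthest to the right among de novo regulators is Gm14490, which has almost no counts in NC, so its fitted fold change depends on the prior count; the medians of maintenance cofactors (-0.34), base excision (-0.34) and methyl donor supply (-0.49) lie left of 0.

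Markers of other cell states were read beside these changes. The de novo genes are known to rise as cells leave the naive state for the primed epiblast. Of 7 primed markers 5 were raised and 1 lowered, with a median log2 fold change of 1.52 beside 0.06 over all genes, and their summed level was 28.24 to 29.8 CPM in NC and 24.81 to 26.24 with Chaf1a siRNA. The lowered marker, Otx2, a transcription factor of the epiblast, had most of that sum in NC (24.4 CPM, against 9.053 with Chaf1a siRNA). Of 10 naive markers, which include Prdm14 and Dppa3, 6 were lowered and 3 raised, with a summed level of 2263 to 2308 CPM in NC and 1980 to 2022 with Chaf1a siRNA. Primitive endoderm markers, 5 of 6 raised, summed to 3.396 to 4.673 CPM in NC, where Sox7 was at 0 counts, and to 32.37 to 34.08 with Chaf1a siRNA. Fibroblast markers, 4 of 5 tested raised, summed to 9.19 to 10.1 CPM in NC, where Col3a1 and Dcn were at 0 counts, and to 59.9 to 61.58 with Chaf1a siRNA. Trophectoderm markers, 3 of 5 raised and 1 lowered with a median log2 fold change of 1.45, summed to 77.32 to 77.99 CPM in NC and 79.71 to 81.29 with Chaf1a siRNA. The lowered marker, Tfap2c, had most of that sum in NC (64.83 CPM, against 47.8 with Chaf1a siRNA). Krt8 went from 2.814 to 14.35 CPM and Krt18 from 4.049 to 11.06 CPM. The part of these cell states in the rise of Dnmt3l, Dnmt3a and Dnmt3b was not tested.

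Genes whose levels followed each member over the 8 libraries were many for Dnmt3l and few for Tet2. Pearson's r of log2 CPM was computed across the 8 libraries, which form 4 groups, and it is given as a description. Of 14374 genes with a mean of at least 1 CPM, 1926 reached an r of 0.95 with Dnmt3l, 1691 with Dnmt3a, 807 with Dnmt3b, 1030 with Uhrf1 and 514 with Dnmt1. The TET genes had fewer, 93 for Tet1, 20 for Tet2 and 96 for Tet3. The genes closest to Dnmt3l were Fhdc1 (r = 0.9992), Akr1cl and Ptpn14, to Dnmt3a Rhbg (0.9991), P2ry6 and Lhfp, and to Dnmt3b Pdlim2 (0.992), Dpf1 and Lcp1. The uracil glycosylase gene Ung was closest to Uhrf1 (0.9981), before Ago1 and Mybbp1a, and Sf3a2 (0.9956), Smcr8 and Supt5 to Dnmt1. Phc1 (0.9897), Wdr24 and Ankmy2 were closest to Tet1, Dnah8 (0.9904), Ttn and Dtymk to Tet2, and Nradd (0.9947), Gpc1 and Unc5a to Tet3. Akr1cl, for one, had 2.007 CPM in NC, 105.3 in the Chaf1a group, 79.27 when si308 was added and 109.8 when si309 was added, the same order of groups as Dnmt3l except that si309 stood above Chaf1a siRNA alone.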

How the data were processed

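PolyA RNA was sequenced from 8 libraries. Reads were aligned with Novoalign 2.8 to mm10, and DESeq2 was used, per the submitters' processing notes; the counter and its annotation are not given in the sources used here. The deposited table holds raw counts per Ensembl gene, with log2 fold changes against the negative control and adjusted p-values from the authors, quoted only where named. Count columns are numbered 0 and 1 and were mapped to groups, so replicate 0 and 1 name columns. Of 28431 IDs, 27843 matched GENCODE M21, the source of coordinates and exon lengths; promoters came from RefSeq.

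Counts were fitted with edgeR 4.0.16 in R 4.3.3: filterByExpr (minimum count 10), TMM, 1 mean per group, 4 residual degrees of freedom, common dispersion 0.00195 and prior degrees of freedom 17. P-values measure the spread between these 2 replicates a group, helped by that of all genes. The fit was also run on simulated data in which few genes changed. That run did not test scaling where most genes are called, as in the comparisons with NC. Alternatives were DESeq2 1.42.0 (test and size factors), library totals, other filters, robust estimation, 2 groups alone, a replicate block and leaving out each library.

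The 8 genes and all lists were chosen with earlier results of these data known. The rule names all 8 in every contrast, for each list at most 3 genes in each direction, those of smallest adjusted p in Chaf1a minus NC, and for each member the 3 genes of highest r (predicted models left out). Tdg, Mat2a and other list genes named for their role, the list genes given a pool comparison, and the example of Akr1cl, were picked after their values were seen. Prdm14 and Pou5f1 are among the genes that the rule names. Some list genes that the rule names are not reported here.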

Additional observations from a re-analysis of the deposited data

Results flagged for a closer look

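The effect of the mDux pools on 2 of the 8 genes differed between the pools by a direct test of si309 against si308, both given with Chaf1a siRNA. Tet1 had a log2 fold change of -0.35 between the pools (edgeR adjusted p = 0.00019), with both si309 libraries below both si308 libraries. Tet2 had -0.25 (edgeR adjusted p = 0.011), with the same separation of libraries. Libraries of the pools were also separated for Uhrf1, Dnmt3l and Tet3, which edgeR did not call. The share of all genes separated in this way was not computed, so separation is not read as a result. The Tet2 call, unlike that of Tet1, did not hold in every fit that left out 1 library of either pool, where its value ran from -0.297 to -0.208. Against Chaf1a siRNA alone, Tet2 was not called with si308 or si309 (edgeR adjusted p = 0.081 and 0.23). The two-cell-like genes also differed between the pools, with a summed level of 30.64 to 31.44 CPM with si309 and 1.694 to 2.048 CPM with si308, and the part of that difference in Tet1 and Tet2 was not tested.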

How the results depend on the processing

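Over the 8 genes, 6 comparisons and all alternatives, 537 values kept their direction and side of the threshold, 18 were no longer called, 13 became called and 8 turned direction. The count of members called stayed within 1.5 times its value in the 3 comparisons with NC under every alternative. Against Chaf1a siRNA alone, si308 gave 4 calls, and 0 to 4 when 1 library was left out; si309 gave 0, and 3 when those 2 groups were fitted alone. Between the pools there were 2 calls, 4 with no filter on low counts, 4 with DESeq2, and 1 to 3 when 1 library was left out. The share of all genes called in each alternative fit is not given here. A fit that calls more genes in general therefore cannot be told apart from a change in these members. No value that turned direction was called in either the main or the alternative fit. With library totals, Dnmt3l for si309 minus Chaf1a was 0.00137 and Tet2 for si308 minus NC 0.0424. Without si309 replicate 0, Dnmt3l for si309 minus Chaf1a was 0.0237, the highest of the fits that left out 1 library, whose lowest was -0.0624. Between the pools, Dnmt1 was -0.00625 without si308 replicate 0 and -0.00382 without si309 replicate 0, with a range from -0.00625 to 0.0535. Dnmt3a there was -0.0585 without si308 replicate 0 and -0.0142 without si309 replicate 1, in a range from -0.0585 to 0.0961, and Dnmt3b was 0.0383 without si308 replicate 1, in a range from -0.166 to 0.0383. Tet1 for si308 minus NC was -0.118 with library totals and no longer called (adjusted p = 0.051). With library totals the split of called genes was 7690 raised and 3275 lowered for si308 minus NC, against 5907 and 5193, and 8082 and 3556 for si309 minus NC, against 6262 and 5510. The cause of these moves was not tested. The length used for per-kilobase shares moved Dnmt3b in NC from 34.6% to 27.5% and Tet2 in NC from 20.9% to 31%.

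Same-numbered libraries showed no strong shared deviation (correlations from -0.0933 to 0.0974 over 14375 genes). These deviations include counting noise, so they cannot show whether same-numbered libraries were prepared together. A replicate block left the members called at 8, 4, 0, 2, 7 and 8 in Chaf1a minus NC, si308 minus Chaf1a, si309 minus Chaf1a, si309 minus si308, si308 minus NC and si309 minus NC, the same counts as without it. With 2 libraries a group, a fit that leaves out 1 assumes that the lone sample varies like the other groups. Tet3, whose lowest count in a library was 144, is the member that depth limits most.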
